A study of Mus musculus with 16 samples.

Results

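The genes described here are 45 that mark germ cells in the newborn mouse testis: prospermatogonia, the spermatogonial stem cells that come from them, and the early differentiating spermatogonia. They were chosen by name, as rows of the expression table whose gene symbol equals a listed symbol. The members, and the gene lists set beside them, were chosen with earlier results of these data known. Their counts beside the share of all genes are therefore descriptions. A row was found for 44 of the 45 among the 35983 genes of the table, and the remaining name, *Plzf*, is the older symbol of *Zbtb16*, which is itself a member. In the mouse, male germ cells stop dividing in the fetal testis and stay quiet as prospermatogonia until shortly after birth. They then resume division, move to the wall of the seminiferous tubule and become either stem cells or spermatogonia that go straight on to differentiate. Self-renewal of the stem cells depends on GDNF, a growth factor made by Sertoli cells, the somatic cells that nurse the germ line, and differentiation depends on retinoic acid and KIT ligand.

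mRNA of whole testes was sequenced in 4 groups of 4 samples on a mixed 129Sv and C57Bl/6J background, to ask how the nuclear receptor LRH1 acts in germ cells and in Sertoli cells. At postnatal day 1 (P1), *Nanos3-Cre* testes, with an *Lrh1* floxed allele over a null allele and the Cre, were set against testes of the same floxed over null genotype with no Cre, so both P1 groups carried 1 null allele in every cell. At postnatal day 3 (P3), *Dhh-Cre* testes homozygous for the floxed allele were set against homozygous floxed testes with no Cre. *Nanos3-Cre* acts in fetal germ cells, where the *Nanos3* gene is active, and *Dhh-Cre* acts in Sertoli cells. Since no control carried a Cre, deletion of *Lrh1* cannot be told apart from presence of the Cre in either comparison. Each P1 group had 3 samples made from 500 ng of RNA and 1 from 400 ng, and all P3 samples were made from 400 ng.

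Every level below is the authors' group mean in FPKM (fragments scaled to gene length and library size). The files used here hold no values per sample, so there is no SD, depth or test, and a difference of means cannot be set against the spread between replicates. A comparison is given as the log2 ratio of 2 means with 0.1 FPKM added to each, which understates the difference for low genes. It was taken for genes whose mean over both groups was at least 0.5 FPKM, and a ratio of 1.5-fold (0.585 on the log2 scale) was counted. *Nr5a2*, the gene that encodes LRH1, is on chromosome 1 of GRCm38 from 136842571 to 136960448. Its mean was 0.491 FPKM in *Nanos3-Cre* and 0.764 FPKM in control testes at P1. At P3 it was 0.609 FPKM in *Dhh-Cre* and 1.15 FPKM in control testes. Both mutant groups thus had the lower mean, in RNA pooled from all cells of the testis.

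The labelled tissue was checked with 2 defining genes of other lists. *Ddx4*, the germ cell RNA helicase, averaged 2.05 FPKM in *Nanos3-Cre* and 3.98 FPKM in control testes at P1, and 11.9 FPKM in *Dhh-Cre* and 13.5 FPKM in control testes at P3. *Sox9*, the Sertoli cell transcription factor, averaged 24.97 FPKM in *Nanos3-Cre* and 21.1 FPKM in control testes at P1, and 15.0 FPKM in *Dhh-Cre* and 50.1 FPKM in control testes at P3. Germ cell and Sertoli cell mRNA was thus present in the testes of both ages.

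Most of the germ cell genes were at low levels in whole testis. Of the 44 genes, 38 reached 0.5 FPKM in at least 1 group and 6 did not. The median member stood at 1.40 FPKM in *Nanos3-Cre* and 1.97 FPKM in control testes at P1. At P3 it stood at 3.60 FPKM in *Dhh-Cre* and 3.52 FPKM in control testes. At 10 FPKM or more there were 2 members in *Nanos3-Cre* and 3 in control testes at P1, and 8 in *Dhh-Cre* and 10 in control testes at P3. *Mcam* had the highest mean of the members in all 4 groups, and *Dazl* and *Etv5* were also among the 8 highest in each.

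**Figure D1:**
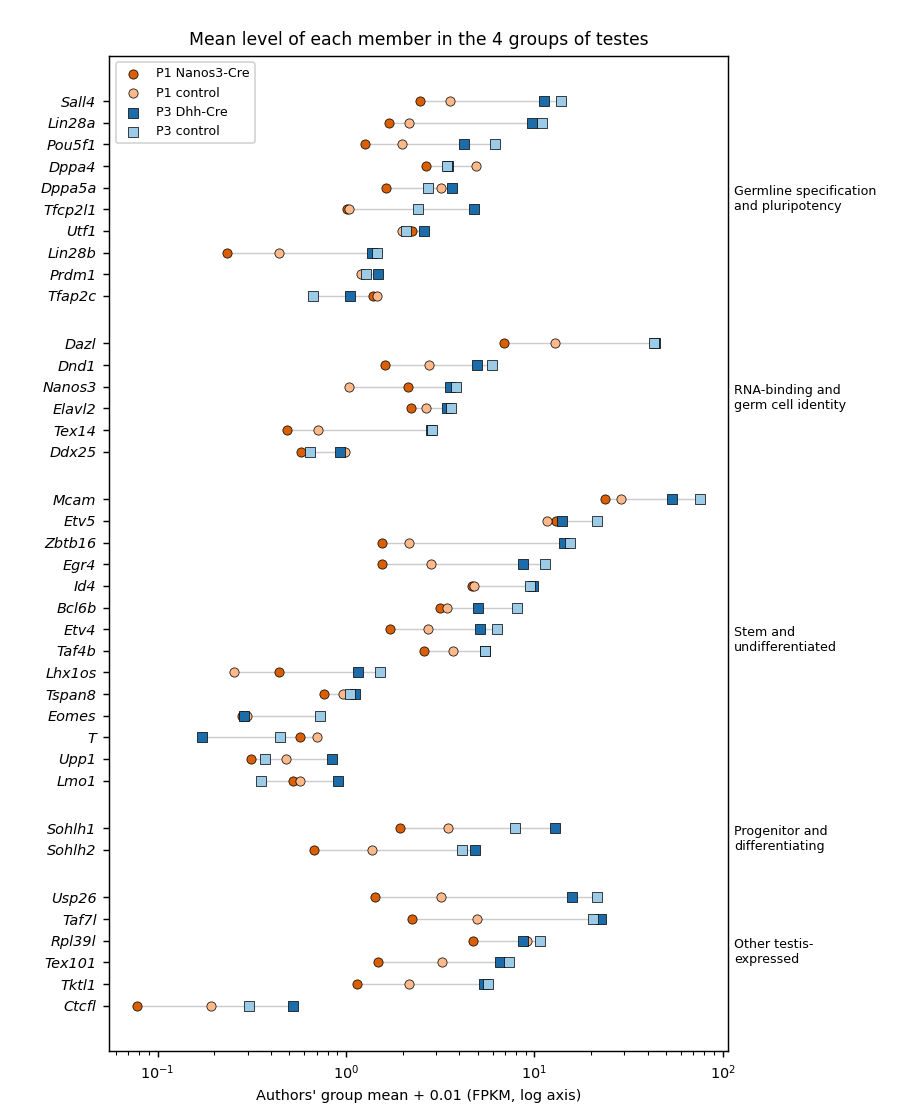
Authors' group mean of the 38 members that reached 0.5 FPKM in a group (FPKM plus 0.01, log axis), by role, with P1 groups as circles (*Nanos3-Cre* dark orange, control pale orange) and P3 groups as squares (*Dhh-Cre* dark blue, control pale blue). There are no error bars because only group means were used. For most genes the P3 squares lie to the right of the P1 circles, as for *Zbtb16* (15.4 FPKM in P3 controls, 2.15 FPKM in P1 controls).

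At P1, *Nanos3-Cre* testes, with *Lrh1* deleted in germ cells, had lower means of most germ cell genes than control testes. The paper reports that its own test of these groups found only a few misexpressed genes, and no member was among them. The ratios below are differences of means that were not tested here. Of the 33 members that passed the minimum, 15 were lower in *Nanos3-Cre* than in control testes by 1.5-fold or more, against 3.46% of all 16121 genes that passed. They were *Dazl*, *Dnd1*, *Ddx25*, *Pou5f1*, *Dppa4*, *Dppa5a*, *Etv4*, *Egr4*, *Sohlh1*, *Sohlh2*, *Taf7l*, *Usp26*, *Tktl1*, *Tex101* and *Rpl39l*. *Nanos3* alone was higher by that fold, against 3.17% of all genes. The median log2 ratio of the 33 was −0.50, and that of all genes was 0.02. At any size of difference 29 were lower and 4 higher, where 45.4% of all genes were lower. At 2-fold, *Taf7l*, *Usp26* and *Tex101* were lower, against 1.39% of all genes. With no minimum, 38 of the 44 had the lower mean in *Nanos3-Cre* testes and 6 the higher.

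Genes outside the members gave mixed values in the same libraries, lower for germ cell genes in general. Of a list of 16 genes that germ cells in general express, 10 passed the minimum at P1, 9 of them had the lower mean in *Nanos3-Cre* testes and 6 were lower by 1.5-fold, with a median log2 ratio of −0.77. *Mov10l1* and *Asz1*, both among the 6, passed the minimum only through the control mean and also enter this median. The levels of the whole list summed to 19.6 FPKM in *Nanos3-Cre* and 33.9 FPKM in control testes. Relative to that median, 0 of the 33 members were lower by 1.5-fold, where 0.639% of all genes were, and 9 were higher, where 85.8% of all genes were. The median member stood 0.27 above it. Other lists of spermatogonial genes were nearer to equality, with a median of 0.12 for the GDNF receptor and its responses (6 of 9 genes higher), −0.10 for differentiating spermatogonia (5 of 8 lower) and −0.30 for other genes of undifferentiated spermatogonia (5 of 9 lower). In the GDNF list, the receptor genes *Ret* (−0.70) and *Gfra1* (−0.53) had lower means. These lists also hold genes expressed outside the germ line, such as *Ccnd1* and *Nr0b1*. In bulk RNA, fewer germ cells and less of the germ cell mRNAs per germ cell cannot be told apart. Markers of Sertoli cells had a median log2 ratio of 0.11 at P1 with 0 of 12 past 1.5-fold, and those of Leydig cells 0.07 with 0 of 7. Macrophage markers were higher in *Nanos3-Cre* testes in 5 of 5 genes, 4 of them by 1.5-fold, and summed to 70.2 FPKM there and 43.4 FPKM in controls. Myoid markers were lower in 4 of 4 genes, with a median of −0.49, and red cell markers in 5 of 6, with a median of −0.40. The part of these other cells in the germ cell values was not tested.

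At P3, *Dhh-Cre* testes, with *Lrh1* deleted in Sertoli cells, gave another picture, with the germ cell genes spread on both sides of equality. Of the 35 members that passed, 2 were lower in *Dhh-Cre* than in control testes by 1.5-fold (*Bcl6b* and *Etv5*), against 8.34% of 16923 genes, and 5 were higher (*Sohlh1*, *Tfcp2l1*, *Tfap2c*, *Lmo1* and *Upp1*), against 12.5%. These shares are near those of all genes. *Lmo1* and *Upp1* passed the minimum only through the *Dhh-Cre* mean. The median log2 ratio was −0.06 for the 35 and 0.00 for all genes. Of the 15 members lower at P1, 14 were under 1.5-fold in either direction at P3, and *Sohlh1* was higher. Most genes were also under that fold at P3, where 8.34% of all genes were lower and 12.5% higher. The share among all genes lower at P1 was not computed. The P1 and P3 comparisons share no samples, and they differ in age, Cre line and genotype, which cannot be told apart. Whether the ratios differ between them was not tested, since no values per sample were used.

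Markers of somatic cell types stood far from equality at P3. All 12 Sertoli markers were lower by 1.5-fold in *Dhh-Cre* testes, with a median log2 ratio of −1.53 and a sum of 577 FPKM there against 1599 FPKM in controls. Markers of the interstitial mesenchyme (median 1.15, 6 of 7 higher by 1.5-fold), endothelium (0.74, 3 of 5) and macrophages (1.15, 5 of 5) were higher. Red cell markers were lower in 6 of 6 genes, 2 of them by 1.5-fold, with a median of −0.46. Leydig markers were mixed, 2 of 7 lower and 3 higher, and *Cyp17a1*, a steroid enzyme of these cells, averaged 53.9 FPKM in *Dhh-Cre* and 48.9 FPKM in control testes. The general germ cell list had a median of −0.02 over 15 genes and summed to 72.5 FPKM in *Dhh-Cre* and 72.3 FPKM in control testes. The part of the Sertoli difference in the values of the germ cell genes was not tested. Members also expressed by somatic cells of the testis include *Etv5*, *Id4*, *Bcl6b* and *Mcam*. Without these 4, 0 of 31 members were lower by 1.5-fold at P3, against 8.34% of all genes, and 15 of 29 were lower at P1, against 3.46%. The members that remain are not all confined to germ cells, since *Ddx25*, which Leydig cells also make, was kept among them.

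**Figure D2:**
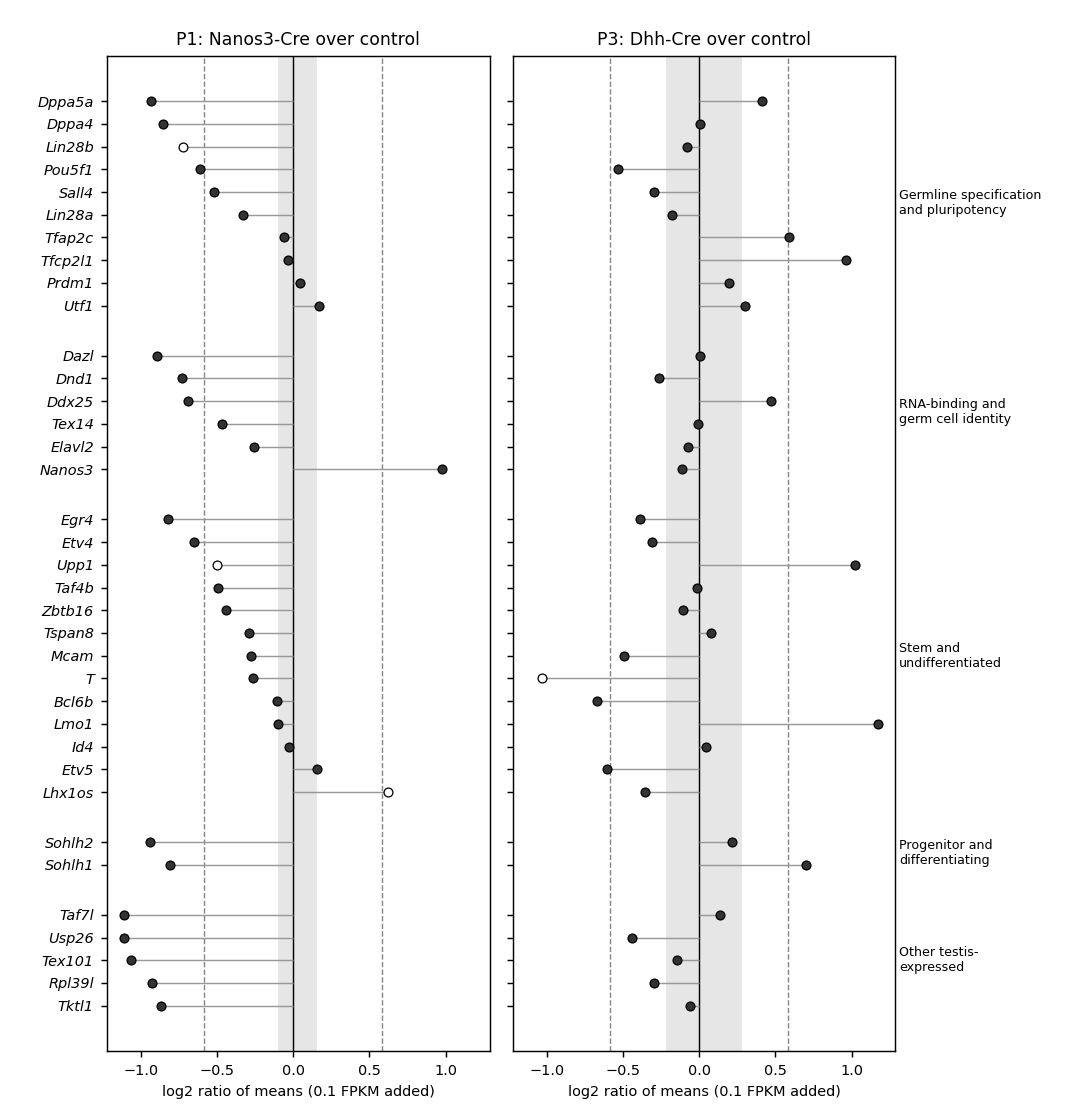
Log2 ratio of group means (0.1 FPKM added) for each member by role, *Nanos3-Cre* over control at P1 (left) and *Dhh-Cre* over control at P3 (right), where filled points passed the 0.5 FPKM minimum, open points did not, dashed lines mark 1.5-fold and the grey band holds the middle 50% of all genes. Most P1 points lie left of 0, down to −1.11 for *Taf7l*, while P3 points lie on both sides, from −0.67 for *Bcl6b* to 1.17 for *Lmo1* among those that passed.

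The transcription factors of germline specification and pluripotency came in a wide range. *Pou5f1*, which encodes OCT4, averaged 1.25 FPKM in *Nanos3-Cre* and 1.96 FPKM in control testes at P1, and 4.24 FPKM in *Dhh-Cre* and 6.19 FPKM in control testes at P3. *Sall4*, a zinc finger factor needed for germ cell maintenance, averaged 2.45 FPKM in *Nanos3-Cre* and 3.55 FPKM in control testes at P1, and 11.2 FPKM in *Dhh-Cre* and 13.8 FPKM in control testes at P3. Both genes had the lower mean in the mutants at both ages. Their P1 log2 ratios lay on either side of the 1.5-fold line, −0.61 for *Pou5f1* and −0.52 for *Sall4*, and these were the members nearest to it on each side.

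*Tfcp2l1*, a CP2 family factor of naive pluripotency, averaged 1.00 FPKM in *Nanos3-Cre* and 1.03 FPKM in control testes at P1, and 4.78 FPKM in *Dhh-Cre* and 2.40 FPKM in control testes at P3 (log2 ratio 0.97). *Tfap2c*, which encodes AP2γ of the primordial germ cell programme, averaged 1.38 FPKM in *Nanos3-Cre* and 1.44 FPKM in control testes at P1, and 1.04 FPKM in *Dhh-Cre* and 0.660 FPKM in control testes at P3. These 2 genes were level between the P1 groups and higher in *Dhh-Cre* testes at P3, *Tfap2c* only just past 1.5-fold (0.59). *Prdm1*, the repressor BLIMP1 of germ cell specification, averaged 1.23 FPKM in *Nanos3-Cre* and 1.19 FPKM in control testes at P1, and 1.46 FPKM in *Dhh-Cre* and 1.26 FPKM in control testes at P3. *Utf1*, a chromatin protein of embryonic stem cells and undifferentiated spermatogonia, averaged 2.24 FPKM in *Nanos3-Cre* and 1.98 FPKM in control testes at P1, and 2.59 FPKM in *Dhh-Cre* and 2.08 FPKM in control testes at P3. *Prdm1* and *Utf1* were under 1.5-fold in both Cre comparisons.

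The LIN28 proteins bind RNA and block maturation of the let-7 miRNAs. *Lin28a* averaged 1.68 FPKM in *Nanos3-Cre* and 2.14 FPKM in control testes at P1, and 9.66 FPKM in *Dhh-Cre* and 10.9 FPKM in control testes at P3. *Lin28b* averaged 0.223 FPKM in *Nanos3-Cre* and 0.433 FPKM in control testes at P1, and 1.36 FPKM in *Dhh-Cre* and 1.44 FPKM in control testes at P3. Both had higher means in the P3 than in the P1 groups, and *Lin28b* was below the minimum at P1.

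*Dppa4*, a nuclear protein of pluripotent and germ cells, averaged 2.66 FPKM in *Nanos3-Cre* and 4.90 FPKM in control testes at P1, and 3.46 FPKM in *Dhh-Cre* and 3.44 FPKM in control testes at P3. *Dppa5a*, a KH domain protein of the same cells, averaged 1.63 FPKM in *Nanos3-Cre* and 3.20 FPKM in control testes at P1, and 3.66 FPKM in *Dhh-Cre* and 2.73 FPKM in control testes at P3. They had the lowest P1 log2 ratios of the pluripotency group, −0.85 for *Dppa4* and −0.94 for *Dppa5a*, with no such difference at P3. *Dppa3* reached at most 0.380 FPKM (P1 controls) and was listed at 0 in P3 controls, and *Prdm14* reached at most 0.048 FPKM. Of the 12 genes of this group, 9 passed at P1, where 3 were lower by 1.5-fold (median −0.33), against 3.46% of all genes. At P3, 10 passed and 2 were higher (median 0.10), against 12.5% of all genes.

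The genes of RNA-binding and other germ cell identity proteins had lower means in *Nanos3-Cre* testes at P1, with *Nanos3* as the exception. *Dazl* (chromosome 17, 50279395 to 50293636, minus strand), which licenses germ cells for gametogenesis, averaged 6.86 FPKM in *Nanos3-Cre* and 12.9 FPKM in control testes at P1. In P3 testes it averaged 43.5 FPKM in *Dhh-Cre* and 43.4 FPKM in control samples. Its log2 ratio was −0.90 at P1 and 0.01 at P3, so the P1 mutant mean was 0.533 times that of controls and the P3 means were level. *Dnd1*, a partner of the NANOS proteins whose loss removes germ cells, averaged 1.61 FPKM in *Nanos3-Cre* and 2.73 FPKM in control testes at P1, and 4.94 FPKM in *Dhh-Cre* and 5.95 FPKM in control testes at P3. *Elavl2*, a HU family protein of neurons and germ cells, averaged 2.2 FPKM in *Nanos3-Cre* and 2.66 FPKM in control testes at P1, and 3.43 FPKM in *Dhh-Cre* and 3.61 FPKM in control testes at P3. Of these, *Dnd1* (−0.73) but not *Elavl2* (−0.26) passed 1.5-fold at P1, and neither did at P3.

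*Ddx25*, a DEAD-box helicase made by germ cells and also by Leydig cells, averaged 0.569 FPKM in *Nanos3-Cre* and 0.980 FPKM in control testes at P1, and 0.920 FPKM in *Dhh-Cre* and 0.636 FPKM in control testes at P3. *Tex14*, which keeps the bridges between sister germ cells open, averaged 0.477 FPKM in *Nanos3-Cre* and 0.699 FPKM in control testes at P1, and 2.83 FPKM in *Dhh-Cre* and 2.84 FPKM in control testes at P3. *Tex14* passed the P1 minimum only through the control mean. *Nanos3*, a translational repressor needed for germ cell survival, averaged 2.11 FPKM in *Nanos3-Cre* and 1.03 FPKM in control testes at P1, and 3.55 FPKM in *Dhh-Cre* and 3.85 FPKM in control testes at P3. Its P1 log2 ratio of 0.98 was the highest of all members, and it is the gene whose regulatory sequence drives the Cre of these mutants. Whether RNA of the Cre allele counts toward it was not tested. Of the 6 genes of this group, 3 were lower and 1 higher by 1.5-fold at P1, against 3.46% and 3.17% of all genes, and 0 were past that fold at P3, where 8.34% of all genes were lower and 12.5% higher.

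The factors of stem and undifferentiated spermatogonia had the P1 median nearest to equality of the roles. This group holds *Etv5*, *Id4*, *Bcl6b* and *Mcam*, which somatic cells also express and whose own P1 median was −0.07. The P1 log2 ratios of the others that passed ran from −0.82 (*Egr4*) to −0.10 (*Lmo1*). A median of this group without the genes shared with somatic cells was not computed. *Zbtb16* (chromosome 9, 48654297 to 48836222, minus strand) encodes PLZF, a marker of undifferentiated spermatogonia. It averaged 1.55 FPKM in *Nanos3-Cre* and 2.15 FPKM in control testes at P1, and 14.3 FPKM in *Dhh-Cre* and 15.4 FPKM in control testes at P3. *Id4*, an inhibitor of bHLH factors that marks stem cells, averaged 4.68 FPKM in *Nanos3-Cre* and 4.77 FPKM in control testes at P1, and 9.77 FPKM in *Dhh-Cre* and 9.47 FPKM in control testes at P3. The log2 ratio of *Id4* was −0.03 at P1 and 0.04 at P3, and that of *Zbtb16* was −0.44 at P1 and −0.11 at P3.

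GDNF acts in stem cells in part through *Etv5* and *Bcl6b*. *Etv5*, an ETS factor that Sertoli cells also make, averaged 13.0 FPKM in *Nanos3-Cre* and 11.6 FPKM in control testes at P1, and 14.1 FPKM in *Dhh-Cre* and 21.4 FPKM in control testes at P3. Its relative *Etv4* averaged 1.70 FPKM in *Nanos3-Cre* and 2.72 FPKM in control testes at P1, and 5.11 FPKM in *Dhh-Cre* and 6.35 FPKM in control testes at P3. The pair differed in where they passed 1.5-fold: *Etv4* at P1 (−0.65) and *Etv5* at P3 (−0.60). *Bcl6b*, a BTB zinc finger repressor, averaged 3.16 FPKM in *Nanos3-Cre* and 3.41 FPKM in control testes at P1, and 5.04 FPKM in *Dhh-Cre* and 8.08 FPKM in control testes at P3. *Egr4*, a zinc finger factor needed for male fertility, averaged 1.55 FPKM in *Nanos3-Cre* and 2.82 FPKM in control testes at P1, and 8.71 FPKM in *Dhh-Cre* and 11.5 FPKM in control testes at P3. *Bcl6b* had the lowest P3 log2 ratio of the members that passed (−0.67), and *Egr4* the lowest of the stem cell group at P1 (−0.82).

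The source and receptors of GDNF stood beside these values. *Gdnf* averaged 6.13 FPKM in *Dhh-Cre* and 18.0 FPKM in control testes at P3. Of a list of 10 genes for the GDNF receptor and its responses, 9 passed at P3, 4 were lower by 1.5-fold in *Dhh-Cre* testes and the median log2 ratio was −0.48. These 4 were *Lhx1* (2.30 FPKM in *Dhh-Cre*, 4.22 FPKM in controls), *Ret* (4.22 FPKM in *Dhh-Cre*, 6.92 FPKM in controls), *Nefm* (3.69 FPKM in *Dhh-Cre*, 5.76 FPKM in controls) and *Gfra1* (9.15 FPKM in *Dhh-Cre*, 14.018 FPKM in controls). *Gfra1* and *Ret* encode the receptor, and *Lhx1* is known to respond to GDNF. At P1, 9 of the list passed the minimum, 6 of them had the higher mean in *Nanos3-Cre* testes and the median log2 ratio was 0.12. *Ret* was the only gene of the list past 1.5-fold there, at 0.764 FPKM in *Nanos3-Cre* and 1.30 FPKM in control testes. *Gfra1* was under that fold but also lower, at 1.95 FPKM in *Nanos3-Cre* and 2.87 FPKM in control testes. The 2 genes of the list with the highest means, *Ccnd2* (115 FPKM in *Dhh-Cre* and 144 FPKM in control testes at P3) and *Foxo1* (15.7 FPKM in *Dhh-Cre* and 14.5 FPKM in control testes), were under 1.5-fold.

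*Mcam*, a surface adhesion protein of spermatogonia that vessel cells also carry, averaged 23.7 FPKM in *Nanos3-Cre* and 28.8 FPKM in control testes at P1, and 53.7 FPKM in *Dhh-Cre* and 75.7 FPKM in control testes at P3. *Taf4b*, a TFIID subunit needed to keep the germ line, averaged 2.57 FPKM in *Nanos3-Cre* and 3.67 FPKM in control testes at P1, and 5.43 FPKM in *Dhh-Cre* and 5.48 FPKM in control testes at P3. *Tspan8*, a tetraspanin used to sort stem cells, averaged 0.756 FPKM in *Nanos3-Cre* and 0.949 FPKM in control testes at P1, and 1.10 FPKM in *Dhh-Cre* and 1.04 FPKM in control testes at P3. All 3 were under 1.5-fold in both Cre comparisons.

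The remaining genes of this group were near the minimum. *Lhx1os*, a long noncoding RNA beside *Lhx1*, averaged 0.430 FPKM in *Nanos3-Cre* and 0.244 FPKM in control testes at P1, and 1.15 FPKM in *Dhh-Cre* and 1.498 FPKM in control testes at P3. *Eomes*, a T-box factor of a subset of stem cells, averaged 0.271 FPKM in *Nanos3-Cre* and 0.289 FPKM in control testes at P1, and 0.276 FPKM in *Dhh-Cre* and 0.714 FPKM in control testes at P3. *T*, the T-box factor brachyury, averaged 0.558 FPKM in *Nanos3-Cre* and 0.690 FPKM in control testes at P1, and 0.162 FPKM in *Dhh-Cre* and 0.436 FPKM in control testes at P3. *Eomes* and *T* were below the minimum at P3, where their *Dhh-Cre* means were the lower ones. *Lmo1*, a LIM-only protein, averaged 0.514 FPKM in *Nanos3-Cre* and 0.557 FPKM in control testes at P1, and 0.902 FPKM in *Dhh-Cre* and 0.344 FPKM in control testes at P3. *Upp1*, a uridine phosphorylase, averaged 0.302 FPKM in *Nanos3-Cre* and 0.470 FPKM in control testes at P1, and 0.833 FPKM in *Dhh-Cre* and 0.360 FPKM in control testes at P3. These 2 were the members past 2-fold at P3, against 4.75% of all genes. *Pax7* reached at most 0.131 FPKM. Of the 15 stem cell genes with a row, 11 passed at P1, where 2 were lower by 1.5-fold (median −0.28), against 3.46% of all genes. At P3, 12 passed, 2 were lower, against 8.34% of all genes, and 2 were higher, against 12.5% (median −0.21).

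SOHLH1 and SOHLH2 are bHLH partners that start spermatogonial differentiation. Their genes had lower means in *Nanos3-Cre* testes at P1 and higher means in *Dhh-Cre* testes at P3, there past 1.5-fold for *Sohlh1* only. *Sohlh1* (chromosome 2, 25842995 to 25847248, minus strand) averaged 1.94 FPKM in *Nanos3-Cre* and 3.47 FPKM in control testes at P1 (log2 ratio −0.81), and 12.9 FPKM in *Dhh-Cre* and 7.88 FPKM in control testes at P3 (0.70). *Sohlh2* averaged 0.666 FPKM in *Nanos3-Cre* and 1.37 FPKM in control testes at P1 (−0.94), and 4.81 FPKM in *Dhh-Cre* and 4.12 FPKM in control testes at P3 (0.22). *Sohlh2* passed 1.5-fold at P1 only. *Neurog3*, a bHLH factor of progenitors, reached at most 0.362 FPKM, in P3 controls.

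Genes of differentiating spermatogonia outside the list stood beside them at P3. Of 10 such genes, all passed the minimum, 4 were higher by 1.5-fold in *Dhh-Cre* testes and 1 was lower, with a median log2 ratio of 0.31. *Stra8*, the retinoic acid target of germ cells that enter differentiation, averaged 4.75 FPKM in *Dhh-Cre* and 2.13 FPKM in control testes. *Rarg*, a retinoic acid receptor, averaged 8.64 FPKM in *Dhh-Cre* and 3.67 FPKM in control testes. *Ccnd1*, a cyclin of dividing cells in general, averaged 34.5 FPKM in *Dhh-Cre* and 16.7 FPKM in control testes. These 3 were higher by 2-fold in *Dhh-Cre* testes. *Crabp1*, a retinoic acid binding protein, averaged 5.95 FPKM in *Dhh-Cre* and 3.11 FPKM in control testes, and *Stra6*, a retinol transporter, was the lower gene at 3.11 FPKM in *Dhh-Cre* and 6.25 FPKM in control testes. The list thus did not move one way, and *Rarg*, *Ccnd1* and *Crabp1* are also expressed outside the germ line. At P1, 8 of the 10 passed the minimum, and *Uchl1*, a deubiquitinase of spermatogonia, alone was past 1.5-fold, at 3.55 FPKM in *Nanos3-Cre* and 6.32 FPKM in control testes. *Uchl1*, among the 2 highest of the list with *Ccnd1*, had P3 means of 16.9 FPKM in *Dhh-Cre* and 18.0 FPKM in control testes. *Kitl*, the Sertoli cell gene for KIT ligand, averaged 35.8 FPKM in *Dhh-Cre* and 78.7 FPKM in control testes at P3.

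The members known mainly by their expression in testis had the lowest P1 median of the roles (−1.07 over the 5 that passed), and 3 of them had the lowest ratios of the members that passed. *Taf7l* (chromosome X, 134460118 to 134476490, minus strand), a germ cell subunit of TFIID, averaged 2.23 FPKM in *Nanos3-Cre* and 4.93 FPKM in control testes at P1, and 22.6 FPKM in *Dhh-Cre* and 20.6 FPKM in control testes at P3. *Usp26* (chromosome X, 51753959 to 51801233, minus strand), a deubiquitinase, averaged 1.42 FPKM in *Nanos3-Cre* and 3.19 FPKM in control testes at P1, and 15.9 FPKM in *Dhh-Cre* and 21.6 FPKM in control testes at P3. Both had a P1 log2 ratio of −1.11, which placed *Taf7l* 170th and *Usp26* 171st from the lowest of 16121 genes. *Tktl1* (chromosome X, 74177259 to 74208500, plus strand), a transketolase relative, averaged 1.14 FPKM in *Nanos3-Cre* and 2.16 FPKM in control testes at P1, and 5.43 FPKM in *Dhh-Cre* and 5.66 FPKM in control testes at P3. *Tex101*, a surface protein of germ cells on chromosome 7, averaged 1.48 FPKM in *Nanos3-Cre* and 3.21 FPKM in control testes at P1, and 6.60 FPKM in *Dhh-Cre* and 7.31 FPKM in control testes at P3. *Tktl1* (−0.87) and *Tex101* (−1.07) also passed 1.5-fold at P1 and not at P3.

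*Rpl39l*, a ribosomal protein gene enriched in testis, averaged 4.74 FPKM in *Nanos3-Cre* and 9.12 FPKM in control testes at P1, and 8.75 FPKM in *Dhh-Cre* and 10.8 FPKM in control testes at P3. Its value is uncertain where reads are shared with its close relative *Rpl39*, which averaged 31.9 FPKM in *Nanos3-Cre* and 30.0 FPKM in control testes at P1. *Ctcfl*, the testis relative of CTCF, averaged 0.068 FPKM in *Nanos3-Cre* and 0.182 FPKM in control testes at P1, and 0.511 FPKM in *Dhh-Cre* and 0.294 FPKM in control testes at P3, below the minimum in each comparison. *Magea4* reached at most 0.457 FPKM and *Tex13a* at most 0.193 FPKM, both in *Dhh-Cre* testes. All 5 genes of this group that passed at P1 were lower by 1.5-fold (median −1.07), against 3.46% of all genes. At P3, 0 of 5 were past that fold (median −0.15), where 8.34% of all genes were lower and 12.5% higher. The 5 members on chromosome X are all in this group, 3 of them passed the minimum, and these 3 had a median P1 log2 ratio of −1.11, against −0.46 for the 30 autosomal members that passed. The autosomal *Tex101* (−1.07) and *Rpl39l* (−0.93) of this group were also low, both below *Tktl1* on chromosome X (−0.87). Chromosome and role thus cannot be told apart.

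Promoters are shown for 3 of the genes with lower means at P1. *Dazl* is shown as the most abundant of the 15, *Taf7l* as the lowest in ratio, and *Sohlh1* as the member that was higher in *Dhh-Cre* testes at P3. Each sequence is the 250 bases before the RefSeq start on GRCm38.p6, 5′ to 3′ on the minus strand, and capitals mark the E-box CACGTG, a word bound by many bHLH proteins. *Dazl* lies at chr17:50293621-50293870, *Taf7l* at chrX:134476491-134476740 and *Sohlh1* at chr2:25847249-25847498.
Dazl: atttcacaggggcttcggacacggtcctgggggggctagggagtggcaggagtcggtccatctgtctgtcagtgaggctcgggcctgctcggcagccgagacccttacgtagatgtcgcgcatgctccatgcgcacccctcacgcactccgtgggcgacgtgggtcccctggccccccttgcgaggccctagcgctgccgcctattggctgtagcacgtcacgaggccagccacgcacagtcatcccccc
Taf7l: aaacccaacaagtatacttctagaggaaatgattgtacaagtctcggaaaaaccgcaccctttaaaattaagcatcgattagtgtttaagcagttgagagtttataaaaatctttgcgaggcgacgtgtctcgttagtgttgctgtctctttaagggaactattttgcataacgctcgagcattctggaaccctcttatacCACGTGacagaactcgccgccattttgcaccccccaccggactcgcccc
Sohlh1: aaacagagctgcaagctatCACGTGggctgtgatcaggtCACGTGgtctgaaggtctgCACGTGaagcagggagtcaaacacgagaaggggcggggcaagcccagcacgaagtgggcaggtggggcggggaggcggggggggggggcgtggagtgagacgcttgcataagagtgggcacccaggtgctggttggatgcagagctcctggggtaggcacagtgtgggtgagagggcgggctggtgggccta
The *Taf7l* promoter holds 1 E-box, starting 49 bases before the start, and the *Sohlh1* promoter holds 3, at 231, 211 and 192 bases before it, while the *Dazl* promoter holds none. RefSeq promoters were matched for 31 of the 44 members, 41 promoters in all, and the E-box was found in 3 of them, of *Lin28b*, *Sohlh1* and *Taf7l*, against 6.02% of all 32851 promoters. The word CAAGGTCA, a core sequence of the NR5A receptors to which LRH1 belongs, occurred in 0 of the 41 and in 1.33% of all promoters, searched on both strands. CAAGGCCA occurred in 0 of the 41 and in 1.99% of all. Pairs of C followed by G numbered 20 in the *Dazl* window, 14 in that of *Taf7l* and 11 in that of *Sohlh1*. The median was 14 over the 41 promoters and 6 over all promoters.

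Further genes of germ cells and undifferentiated spermatogonia were also lower at P1. *Stk31*, a kinase-like TUDOR protein, averaged 0.846 FPKM in *Nanos3-Cre* and 2.01 FPKM in control testes. *Mael*, a transposon silencing protein with the highest P1 mean of the general list, averaged 7.36 FPKM in *Nanos3-Cre* and 14.6 FPKM in control testes. The other genes of that list past 1.5-fold were *Ddx4*, *Mov10l1* (0.385 FPKM in *Nanos3-Cre*, 0.764 FPKM in controls), *Tdrd1* (0.972 FPKM in *Nanos3-Cre*, 1.75 FPKM in controls) and *Asz1* (0.438 FPKM in *Nanos3-Cre*, 0.805 FPKM in controls). Most of these act in the piRNA pathway that silences transposons. Of 10 other genes of undifferentiated spermatogonia, 9 passed at P1, 4 were lower by 1.5-fold and 2 higher, with a median of −0.30. The lower ones were *Nxf2* (2.82 FPKM in *Nanos3-Cre*, 6.45 FPKM in controls), *Rhox10* (2.79 FPKM in *Nanos3-Cre*, 5.79 FPKM in controls), *Glis3* (0.672 FPKM in *Nanos3-Cre*, 1.26 FPKM in controls) and *Zfp42* (0.419 FPKM in *Nanos3-Cre*, 0.773 FPKM in controls). The higher ones encode epithelial adhesion proteins, *Cdh1* (1.80 FPKM in *Nanos3-Cre*, 1.13 FPKM in controls) and *Epcam* (2.46 FPKM in *Nanos3-Cre*, 1.58 FPKM in controls). *Mov10l1*, *Asz1* and *Zfp42* passed the minimum only through the control mean. Among the genes named in this paragraph, *Nxf2* alone was reported as misexpressed by the paper's own test.

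At P3 the same lists gave other genes. *Nanos2*, the repressor that keeps stem cells undifferentiated, averaged 0.462 FPKM in *Dhh-Cre* and 1.23 FPKM in control testes and was the 1 gene of 15 in the general list past 1.5-fold, passing the minimum only through controls. *Mael* (17.2 FPKM in *Dhh-Cre*, 16.3 FPKM in controls) and *Piwil2* (14.9 FPKM in *Dhh-Cre*, 12.2 FPKM in controls), its most abundant genes, were under that fold. In the list of other undifferentiated genes, *Epcam* (27.7 FPKM in *Dhh-Cre*, 12.8 FPKM in controls) and *Cdh1* (9.01 FPKM in *Dhh-Cre*, 5.06 FPKM in controls) were higher, and *Nr0b1*, a repressor that somatic cells also make, was lower (9.19 FPKM in *Dhh-Cre*, 14.7 FPKM in controls). *Nxf2*, lower at P1, averaged 17.0 FPKM in *Dhh-Cre* and 15.1 FPKM in control testes.

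**Figure D3:**
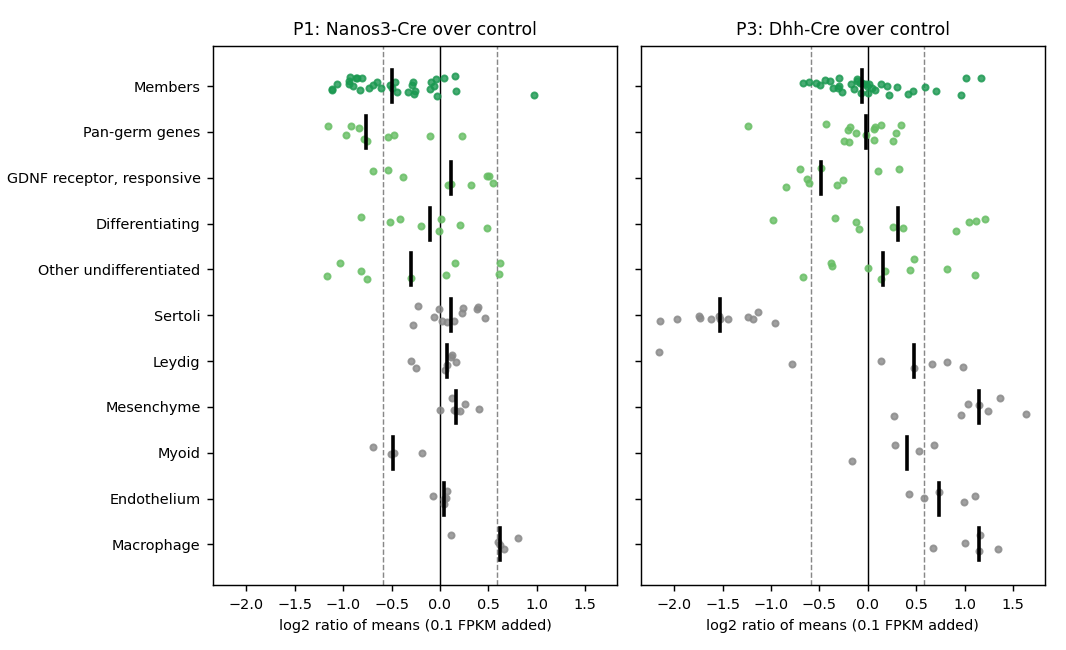
Log2 ratio of group means (0.1 FPKM added) of each gene that passed the minimum, with 1 point per gene and a bar at the median of each list, *Nanos3-Cre* over control at P1 (left) and *Dhh-Cre* over control at P3 (right); the members are dark green, other germ cell lists light green and somatic lists grey, and dashed lines mark 1.5-fold. At P1 the members (median −0.50) and the general germ cell list (−0.77) lie below the Sertoli list (0.11), whereas at P3 the Sertoli list (−1.53) lies far below the members (−0.06).

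Most of the germ cell genes had higher means in P3 than in P1 control testes. Of the 35 members that passed in the control testes, 24 were higher at P3 than at P1 by 1.5-fold, against 18.5% of 16521 genes, and 1 was lower (*Tfap2c*), against 10.1%. At 2-fold, 22 were higher, against 6.36% of all genes. The median log2 ratio of P3 control over P1 control was 1.16 for the members and 0.15 for all genes, and relative to that shift the members' median was 1.02, with 24 higher (12.3% of all genes) and 4 lower (14.5%). *Lin28b*, *Eomes*, *Lhx1os* and *T* passed the minimum through 1 age only. These groups also differ in *Lrh1* genotype (homozygous floxed at P3, floxed over null at P1) and in RNA input, which cannot be told apart from age, and each is also the control of a Cre comparison.

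The stem cell factor *Zbtb16* had the highest ratio, at 15.4 FPKM in P3 and 2.15 FPKM in P1 controls (log2 ratio 2.79), which placed it 65th from the highest of all genes. *Usp26* (2.72), *Lin28a* (2.30), *Lhx1os* (2.22), *Taf7l* (2.04), *Egr4* (1.99) and *Sall4* (1.93) came next. The progenitor factors *Sohlh2* (1.52) and *Sohlh1* (1.16) and the RNA-binding *Tex14* (1.88) and *Dazl* (1.75) were also higher, so members of every role were among those higher at P3. *Tfap2c* was lower at P3 (−1.02), and *T* (−0.56), *Ddx25* (−0.55), *Dppa4* (−0.50) and *Dppa5a* (−0.22) also had lower P3 means, though *Dppa5a* turned higher with means scaled to a common sum. *Prdm1* (0.08), *Utf1* (0.07), *Tspan8* (0.12) and *Rpl39l* (0.24) were close to the ratio of all genes. The general germ cell list had a median of 1.07, with 13 of 15 genes higher by 1.5-fold and a sum of 72.3 FPKM in P3 and 33.9 FPKM in P1 controls, and relative to that median 10 members were higher (1.92% of all genes) and 10 lower (75.9%). Of that list, *Nanos2*, *Piwil4*, *Rnf17* and *Tdrd5* passed the minimum only through the P3 mean. All of these are counted among the 13, and they also enter the median. Sertoli markers had a median of 0.62 and Leydig markers of −1.14 between the same controls. Of the 15 members lower in *Nanos3-Cre* testes at P1, 11 were higher by 1.5-fold in P3 than in P1 controls. By the same measure 24 of all 35 members that passed were higher, and 18.5% of all genes. The P1 controls enter both of these ratios, so this count is given as a description of the same means.

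**Figure D4:**
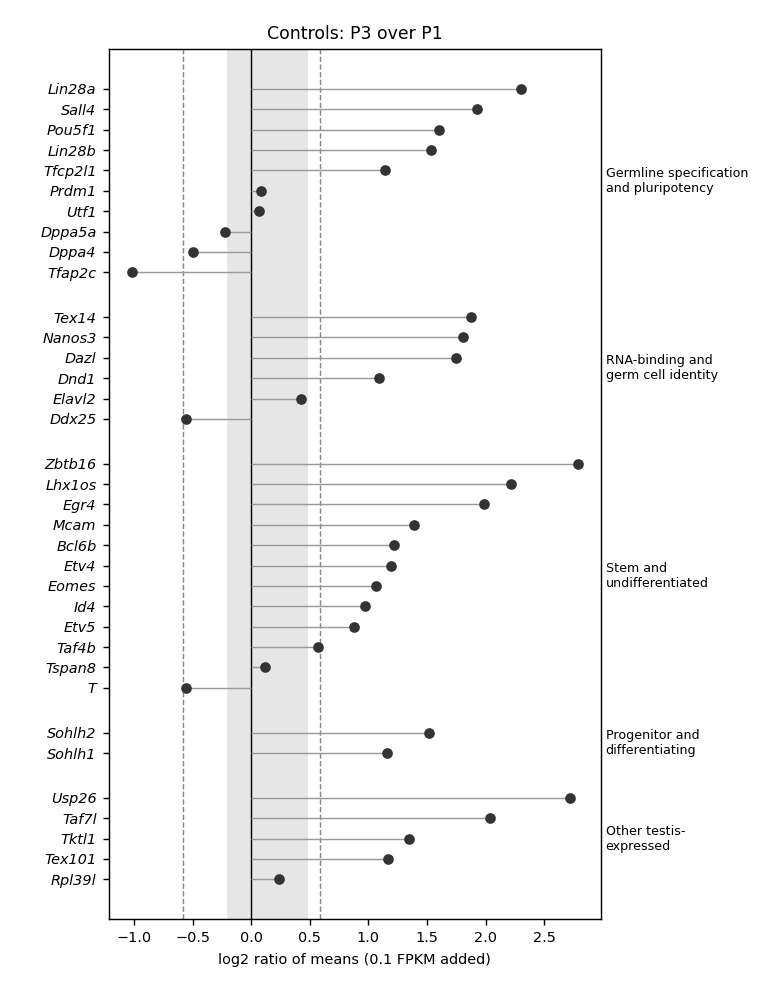
Log2 ratio of the P3 control mean over the P1 control mean (0.1 FPKM added) for the 35 members that passed the minimum, by role, with dashed lines at 1.5-fold and a grey band for the middle 50% of all genes. Most points lie to the right of the band, up to 2.79 for *Zbtb16*, and *Tfap2c* is the lowest at −1.02.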

How the data were processed

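mRNA from whole testes of 16 samples was sequenced by the authors as stranded libraries. The submitters' processing notes and the study's methods state that reads were trimmed with Trim Galore (0.6.0) and cutadapt (1.18), checked with FastQC (0.11.8), mapped with STAR (2.7.2a) to GRCm38 (mm10) and assigned to GENCODE M25 genes by strand with RSubread. The authors deposited FPKM as 1 mean per group for 35983 genes. The library totals behind FPKM are not given in the sources used here, and depth per sample is unknown. Tables of the authors' called genes, with log2 fold changes and adjusted p-values, were deposited as well and were not used.

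Log2 ratios of means were computed with 0.1 FPKM added, for genes that averaged 0.5 FPKM or more over the 2 groups compared, and called at 1.5-fold. Counts of members called in a comparison were set beside the share of all genes called. Every member at 0.5 FPKM or more in any group was named with its 4 means, the others with their highest mean. Of other germ cell lists, genes past 1.5-fold in a Cre comparison (up to 6) and the 2 highest were named. Members and lists were chosen with earlier results of these data known. Samples were grouped by their labels. Alternatives were other pseudocounts, minima, scalings and folds, and counts without some members. Positions are from GENCODE M21 (99.7% of gene IDs found) and promoters from the RefSeq table of GRCm38.p6. Steps were tested on simulated data and run in Python 3.11.15 with numpy 2.4.6, pandas 2.3.3 and matplotlib 3.10.9.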

Additional observations from a re-analysis of the deposited data

How the results depend on the processing

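No value per sample was used, so the spread between replicates, the depth behind each mean and the effect of leaving out a sample could not be computed. No paired analysis was possible because only 1 mean per group was used. The pseudocount weighs most on genes near the minimum.

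The 15 members lower in *Nanos3-Cre* testes at P1 became 3 at 2-fold, 8 with 1 FPKM added and 0 relative to the general germ cell list. The 1 higher became 0 at 2-fold, with a minimum of 2 FPKM and without *Nanos3* (an alternative chosen after seeing the data), 2 with no minimum and 9 relative to the germ cell list. Their median of −0.50 became −0.34 with 1 FPKM added, −0.73 with a minimum of 2 FPKM, 0.27 relative to the germ cell list and −0.61 without *Etv5*, *Id4*, *Bcl6b* and *Mcam*. At P3, the 2 lower in *Dhh-Cre* testes became 0 at 2-fold and without those 4 genes, 1 with 1 FPKM added and 4 with no minimum. The 5 higher became 2 at 2-fold, 2 with 1 FPKM added, 2 with a minimum of 2 FPKM and 8 with no minimum. Between controls, the 24 higher at P3 became 10 relative to the germ cell list. The 1 lower became 0 with 1 FPKM added or a minimum of 2 FPKM, 2 with no minimum, 3 with 0.01 FPKM added, 4 relative to all genes and 10 relative to the germ cell list. The median of 1.16 became 0.98 with 1 FPKM added, 1.40 with means scaled to a common sum, 1.02 relative to all genes and 0.10 relative to the germ cell list. Relative to the germ cell list, 18 of 33 single members turned sign at P1, 2 of 35 at P3 and 9 of 35 between controls. Of those past 1.5-fold in the reported values, these were *Etv4* (0.12), *Pou5f1* (0.16), *Ddx25* (0.078) and *Dnd1* (0.036) at P1, and *Etv5* (−0.19), *Id4* (−0.10) and *Eomes* (−0.0040) between controls. Means scaled to a common sum turned the sign of 2 members at P1 (*Id4* and *Tfcp2l1*), 3 at P3 (*Dazl*, *Id4* and *Dppa4*) and 1 between controls (*Dppa5a*), and values relative to all genes turned 3 between controls (*Tspan8*, *Prdm1* and *Utf1*), none of them past 1.5-fold. With the other pseudocounts and minima, 0 signs turned. The cause of the other shifts was not tested.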

Other observations

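Related members were set side by side within a group, since FPKM is per length. *Sohlh1* stood at 2.91 times *Sohlh2* in *Nanos3-Cre* and 2.53 times in control testes at P1, and at 2.68 times in *Dhh-Cre* and 1.91 times in control testes at P3. *Lin28a* stood at 7.53 times *Lin28b* in *Nanos3-Cre* and 4.94 times in control testes at P1, where *Lin28b* was under 0.5 FPKM, and at 7.09 times in *Dhh-Cre* and 7.58 times in control testes at P3. *Etv5* stood at 7.67 times *Etv4* in *Nanos3-Cre* and 4.28 times in control testes at P1, and at 2.76 times in *Dhh-Cre* and 3.38 times in control testes at P3. *Rpl39* stood at 6.74 times *Rpl39l* in *Nanos3-Cre* and 3.28 times in control testes at P1, and at 2.34 times in *Dhh-Cre* and 1.56 times in control testes at P3. These are ratios of group means with no error, and no difference between them was tested.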
